A study of Mus musculus with 2 samples.

Results

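Lymphatic endothelial cells line the lymphatic vessels of the skin, which drain fluid, lipid and migrating leukocytes from the dermis. Blind-ended capillaries take up fluid and cells, and collecting vessels with valves carry the lymph onwards. The transcription factor Prox1 holds lymphatic identity, Flt4 (VEGFR-3) is the receptor for the lymphatic growth factor VEGF-C, Lyve1 is a hyaluronan receptor typical of the capillaries, and Ccl21a encodes the chemokine that draws CCR7-bearing dendritic cells into them. The cells described here come from a single-cell RNA-seq study of mouse dorsal skin with 1 library per group. Both libraries came from female C57BL/6J mice aged 7 weeks whose back hair had been removed with depilatory cream 24 h earlier. The Ctrl library came from skin that received 100% ethanol daily, and the AD library from skin that received 4.5 nmol per application of MC903 (calcipotriol, a vitamin D analogue that induces dermatitis resembling atopic dermatitis) in the same solvent, on an area of 2 cm by 2 cm, until collection on day 10. The number of mice behind each library is not given in the sources used here.

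The cells were selected on measured values. A barcode was kept when it held 200 to 6000 genes and at most 10% mitochondrial UMIs, and it was taken as lymphatic endothelial when Mmrn1, Prox1, Flt4 and Reln together gave at least 2 UMIs with at least 2 of the 4 found, Pecam1, Cdh5 and Cldn5 together gave at least 1 UMI, and the fibroblast gene Pdgfra and the leukocyte gene Ptprc gave 0. The rule found 613 of 19578 kept cells. The Ctrl library held 313 of them among 11399 kept cells, a share of 2.75% (exact Clopper-Pearson 95% interval 2.45 to 3.06), and the AD library 300 among 8179, a share of 3.67% (3.27 to 4.10). All intervals in the text cover counting error only. A filter on depth and on genes of other lineages gave shares of 3.75% in Ctrl and 3.86% in AD, but by its construction it also takes true keratinocytes, mural cells, macrophages and T cells out of the denominator, so these shares do not bear on doublets. The median lymphatic cell held 4590 UMIs in Ctrl and 6167 in AD, and the summed UMIs of the lymphatic cells were 2072997 and 2447960. With 1 library per group no test between conditions was possible, and mouse, batch and treatment cannot be told apart. The libraries shared 35 barcode sequences, 3 lymphatic cells carried such a sequence, and 0 were lymphatic in both.

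Few cells lay at the edge of the rule. A marker sum of exactly 2 UMIs was found in 4 Ctrl and 4 AD cells, and 306 and 292 cells had a sum of at least 4. Just outside, 24 Ctrl and 23 AD endothelial cells had a marker sum of 1, and 20 and 6 had at least 2 UMIs of only 1 marker. A Pdgfra UMI alone removed 56 and 53 further cells, and a Ptprc UMI alone 17 and 7. Lyve1, which the rule did not use, followed the label. It was detected in 44.7% of the Ctrl and 75% of the AD lymphatic cells, against 8.33% and 4.35% of the cells with a marker sum of 1 and 1.23% and 1.56% of endothelial cells with none of the markers, whose median depths were 6388 and 5839.5 UMIs. Among the genes of the rule, levels summed over the lymphatic cells, as counts per 1000000 UMIs (CPM), were 2972 in Ctrl and 2902 in AD for Mmrn1 (multimerin 1), 1481 and 1190 for Prox1, 614 and 540 for Flt4, and 761 and 1425 for Reln (reelin, a secreted glycoprotein). These values chose the cells and are given as a description. Reln was the rule gene that stood furthest apart between the libraries.

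To compare AD with Ctrl across genes, UMIs were summed over the lymphatic cells of each library, and a gene was ranked when its mean over both libraries was at least 50 CPM. Of 3456 ranked genes, 87 (2.52%) were at least 2-fold higher in AD and 109 (3.15%) at least 2-fold lower, on the ratio of CPM + 10. The median log2 ratio of all ranked genes was 0.02. Of the 87, 63 were in the library where they were high at least as abundant in lymphatic cells as in all other kept cells, and 24 were less abundant there than in other cells. Of the 109 lower genes, 56 were at least as abundant in Ctrl lymphatic cells as in other Ctrl cells and 51 were not, the remaining ones being mitochondrial genes left out of this split.

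The highest ratio belonged to Timp4, an inhibitor of matrix metalloproteinases. Timp4 measured 12.5 CPM in Ctrl and 144 in AD, an 11.5-fold difference (95% interval 7.72 to 17.8). Serpina3n, a secreted serine protease inhibitor of the acute phase, measured 247 and 1709 CPM, a 6.92-fold difference (6.31 to 7.60). Both had higher AD levels outside the lymphatic cells too, with Timp4 at 2.97 and 16.1 CPM and Serpina3n at 214 and 884 CPM in all other cells, and Timp4 at 34.5 and 74.4 CPM in blood vessel endothelial cells. C3, the central complement component, measured 114 and 759 CPM in lymphatic cells and 683 and 741 CPM in other cells. Its 6.67-fold difference was thus seen in the lymphatic cells while the other cells held similar levels, and vessel endothelial cells held 44.6 and 14.3 CPM.

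Genes of antibacterial and iron or metal handling proteins followed. Pglyrp1, a peptidoglycan recognition protein, measured 74.3 CPM in Ctrl and 432 in AD (5.82-fold, 4.91 to 6.93), and it was at 4.05 and 10.1 CPM in the other cells. Lcn2 (lipocalin 2), which binds bacterial siderophores, measured 424 and 1601 CPM (3.78-fold, 3.51 to 4.07), against 4.24 and 111 CPM in the other cells. These were more abundant in lymphatic cells than in the rest of the skin already in Ctrl. Slc39a14, a zinc and iron importer, measured 89.2 and 450 CPM. The share of lymphatic cells with a Pglyrp1 UMI was 31.3% in Ctrl and 68.7% in AD, and 6.82% and 30.2% after every cell was thinned to 1000 UMIs, which 308 and 288 cells reached. Lcn2 was found in 65.2% and 90.7%, and in 32.8% and 64.6% after thinning. Both shares were well above the 2.64% and 3.81% (Pglyrp1) and 1.47% and 13.5% (Lcn2) of other cells with a UMI, whose median depths were 7927 and 6336 UMIs.

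The remaining leading genes included adhesion molecules, an interferon-induced gene and a guidance factor. Icam1, the ligand of leukocyte LFA-1, measured 351 CPM in Ctrl and 1254 in AD (3.57-fold, 3.29 to 3.88). Vcam1, the ligand of the integrin VLA-4, measured 15.9 and 96.0 CPM and was found in only 4.15% and 11.7% of the cells. Icam1 was thus a broad feature of the AD lymphatic cells and Vcam1 a feature of few of them. Ifitm2, which restricts entry of enveloped viruses, measured 936 and 3687 CPM (3.94-fold, 3.75 to 4.14). Pfkfb3, which drives glycolysis, measured 124 and 507 CPM, and Sema3a, a semaphorin that acts through neuropilin 1, measured 182 and 704 CPM. Efhd2, a calcium-binding cytoskeletal protein, completed the 12 leading genes at 47.3 and 178 CPM. Sema3a was scarce in other cells, at 21.7 and 25.4 CPM.

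A second set of higher genes was still more abundant in other cells of the AD library, so RNA from outside the lymphatic cells could add to them and its part was not tested. Cxcl1, a neutrophil chemokine, measured 83.5 and 479 CPM in lymphatic cells and 220 and 1248 in other cells. Ccl2, a monocyte chemokine, measured 33.8 and 186 against 295 and 1314. Apod, a lipocalin that carries lipids, measured 124 and 644 against 592 and 4291. These genes were higher in AD in both cell sets. Igfbp3 (29.9 and 180 CPM) and the metallothionein Mt1 (241 and 1102 CPM) showed the same order, with 5371 and 8339 CPM in other AD cells.

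**Figure D1:**
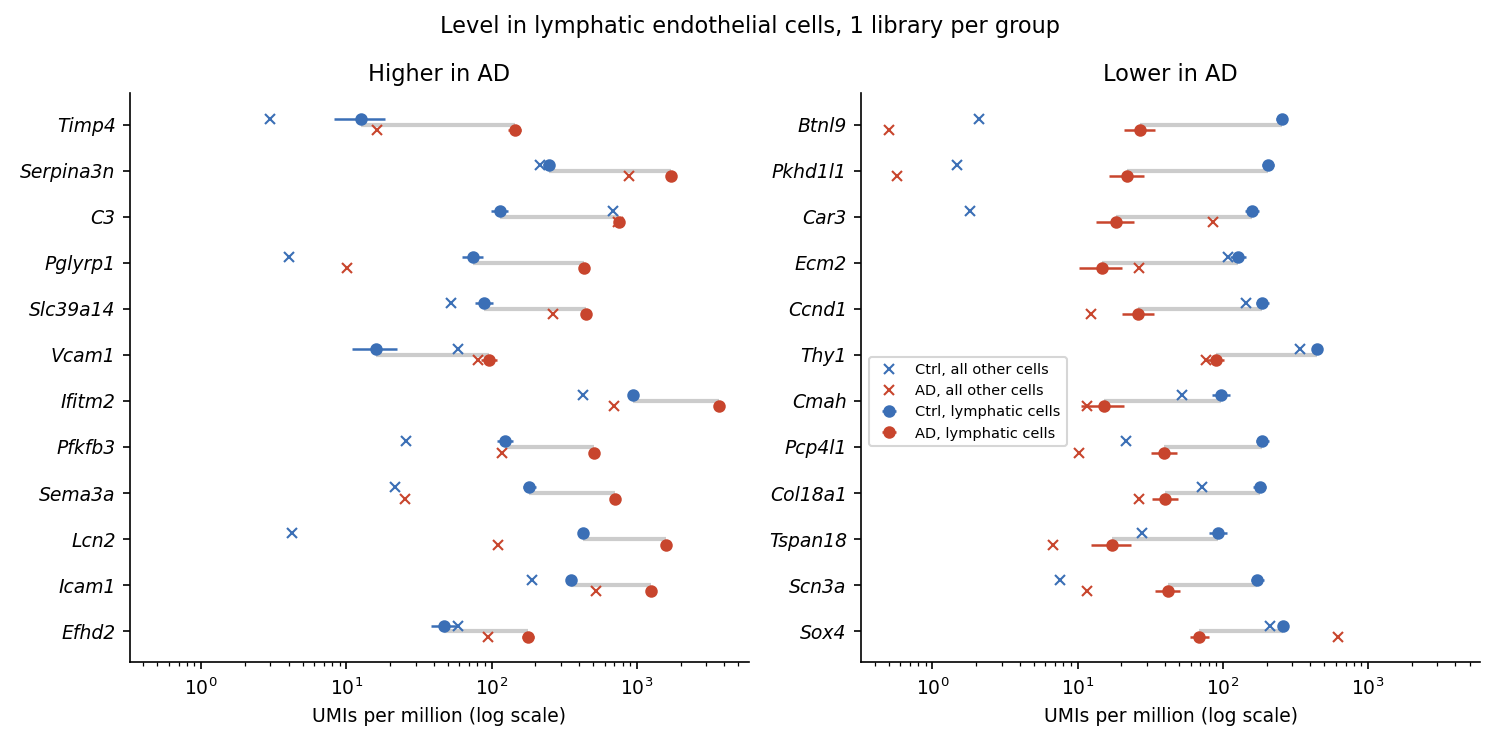
Levels of the 12 highest and 12 lowest genes by the ratio of AD over Ctrl in lymphatic endothelial cells, among genes at least as abundant there as in all other cells of the library where they were higher, in CPM on a log axis; filled points are lymphatic cells with exact Poisson 95% intervals and crosses are all other kept cells (Ctrl in blue, AD in red). Lcn2 and Pglyrp1 sit far to the right of their crosses in both libraries, whereas Serpina3n and Thy1 lie close to theirs in Ctrl.

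Several of the higher genes are known targets of NF-kappaB, the transcription factor released when its inhibitor Nfkbia (IkappaB-alpha) is degraded. Nfkbia itself, chosen after its values were seen, measured 2434 CPM in Ctrl and 6518 in AD, and Tnfaip3, which encodes the feedback inhibitor A20, measured 175 and 460 CPM. Both were higher in AD. The promoter windows of RefSeq (build GRCm38.p6, 250 bases before to 50 after the start) were therefore searched on both strands for the letters GGNNTTTCC, a spelling chosen after the values were seen. A window was on hand for 68 of the 87 higher genes, 69 of the 109 lower genes and 2747 of the 3456 ranked genes. The letters were present in 14 of the 68 higher genes (20.6%) and 6 of the 69 lower genes (8.70%). They were present in 7.68% of ranked genes with a window and 6.62% of all 27025 genes with a window. The overlapping spelling GGGNNTTTC was present in 13.2%, 2.90%, 4.84% and 5.06% of the same sets. A STAT-type spelling, TTCNNNGAA, was present in 11.8%, 7.25%, 7.61% and 9.55%, an interferon-type spelling, TTCNNTTTC, in 5.88%, 13.0%, 8.26% and 9.76%, and an AP-1 spelling, TGANTCA, in 10.3%, 8.70%, 6.23% and 8.97%. These shares are descriptions with no test, and a match does not show binding.

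The 14 higher genes with GGNNTTTCC were Apod, Bcl3, Ctsl, Cxcl1, Cxcl2, Icam1, Ier3, Il6, Nfkbia, Pglyrp1, Serpina3n, Slfn2, Steap4 and Tnfaip3. Windows of 4 of them are printed because these genes carry the comparison above, 5′ to 3′ on the strand of the gene, with the matched letters or their reverse complement in capitals. Nfkbia lies at chr12:55492598-55492897 on the minus strand, with 2 matches that begin 178 and 29 bases before the start. Icam1 lies at chr9:21015690-21015989 on the plus strand, with 2 matches that begin 153 and 84 bases before it. Serpina3n lies at chr12:104406458-104406757 on the plus strand, with 1 match that begins 170 bases before it, and Pglyrp1 at chr7:18884440-18884739 on the plus strand, with 2 matches that begin 232 and 93 bases before it.
Nfkbia: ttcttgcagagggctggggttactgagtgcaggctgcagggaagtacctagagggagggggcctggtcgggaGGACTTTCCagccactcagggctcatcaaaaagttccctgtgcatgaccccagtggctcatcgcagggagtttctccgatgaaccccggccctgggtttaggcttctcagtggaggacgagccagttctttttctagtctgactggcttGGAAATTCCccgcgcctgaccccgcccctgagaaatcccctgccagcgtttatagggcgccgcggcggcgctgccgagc
Icam1: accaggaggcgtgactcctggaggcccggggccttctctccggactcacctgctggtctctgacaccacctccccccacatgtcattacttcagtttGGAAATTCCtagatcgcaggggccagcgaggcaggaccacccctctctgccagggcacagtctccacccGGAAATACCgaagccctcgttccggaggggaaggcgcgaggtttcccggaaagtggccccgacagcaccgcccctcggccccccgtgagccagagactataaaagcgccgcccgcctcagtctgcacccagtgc
Serpina3n: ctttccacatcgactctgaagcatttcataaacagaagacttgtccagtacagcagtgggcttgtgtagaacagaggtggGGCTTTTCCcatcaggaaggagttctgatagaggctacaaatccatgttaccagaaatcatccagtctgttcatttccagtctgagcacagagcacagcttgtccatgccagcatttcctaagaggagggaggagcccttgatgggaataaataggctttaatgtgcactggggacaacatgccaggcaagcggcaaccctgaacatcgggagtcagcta
Pglyrp1: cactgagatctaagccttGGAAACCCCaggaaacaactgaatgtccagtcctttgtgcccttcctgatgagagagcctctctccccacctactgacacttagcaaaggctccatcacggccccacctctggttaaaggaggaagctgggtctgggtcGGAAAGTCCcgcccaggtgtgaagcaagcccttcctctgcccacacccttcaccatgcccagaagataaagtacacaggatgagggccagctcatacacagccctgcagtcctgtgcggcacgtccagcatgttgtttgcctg

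Among the lower genes that were at least as abundant in Ctrl lymphatic cells as in other Ctrl cells, Btnl9 had the lowest ratio. Btnl9, a butyrophilin-like gene of endothelial cells, measured 255 CPM in Ctrl and 27.0 in AD, a 9.46-fold lower level (7.32 to 12.4), and Pkhd1l1, which encodes a large membrane protein, measured 205 and 22.1 CPM (9.29-fold lower). In all other cells as a whole both were at no more than 2.09 CPM. Blood vessel endothelial cells held Btnl9 at 129.8 and 14.3 CPM, 9.07-fold lower in AD (4.63 to 19.8), so its lower level was shared by both endothelial classes, while Pkhd1l1 was at 0 in them. Ecm2, a matrix protein gene, measured 127 and 14.7 CPM in lymphatic and 46.7 and 11.4 CPM in vessel cells. Ccnd1, the cyclin that carries cells into S phase, measured 187 and 26.1 CPM (7.16-fold lower) in lymphatic cells and 144 and 12.4 CPM in all other cells, so its lower level was shared by the rest of the skin. Thy1, a surface glycoprotein of fibroblasts, T cells and lymphatic endothelium, measured 446 and 89.9 CPM (4.96-fold lower, 4.28 to 5.77) against 341 and 76.1 CPM in other cells. Its lower level was likewise seen in the other cells as a whole, but in blood vessel endothelial cells Thy1 measured 89.3 and 80.1 CPM.

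Further down this order stood Cmah (97.9 and 15.1 CPM), which hydroxylates sialic acid, Pcp4l1 (187 and 39.6 CPM), Col18a1 (180 and 40.0 CPM), a collagen of vascular basement membrane, Tspan18 (92.6 and 17.2 CPM), a tetraspanin, and Scn3a (173 and 41.7 CPM), a sodium channel subunit. Sox4, a transcription factor gene, was lower in AD lymphatic cells, at 260 and 69.0 CPM, and in vessel endothelial cells, at 180.5 and 73.0 CPM (2.47-fold lower, 1.73 to 3.56), while it measured 210 and 622 CPM in all other cells. Car3, carbonic anhydrase 3 of muscle and fat, measured 159 and 18.4 CPM, but 95.7% of its Ctrl UMIs came from 1 cell, and without the top cell of each library its log2 ratio was 0.41. Car3 therefore describes 1 cell and not the group.

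The largest negative ratios of all belonged to keratinocyte genes, which lymphatic cells are not known to use. Krt10, a keratin of the upper epidermis, measured 653 CPM in Ctrl and 2.04 in AD lymphatic cells, and 2273 and 51.6 CPM in other cells. Krt77 measured 292 CPM in Ctrl and was at 0 in AD, as was Krt1, at 246 CPM in Ctrl. Cst6 (442 and 8.17 CPM) and Lgals7 (712 and 20.8 CPM) showed the same order. In Ctrl 1 cell held 52.8% of the Krt10, 53.5% of the Krt77, 50.8% of the Krt1 and 65.6% of the Cst6 UMIs. Without the top cell of each gene the Ctrl levels were 308, 136, 121 and 152 CPM, and the log2 ratios of these genes were -4.77, -3.87, -3.71 and -3.36. Without doublet-like cells, the log2 ratios of Krt10 and Krt1 were -3.51 and -1.05. That filter by its construction takes out cells with at least 3 UMIs of genes that include Krt5 and Krt14. The keratinocyte list of 13 genes had 11 ranked, all 11 lower in AD, against 3.15% of all ranked genes, with a median log2 ratio of -4.04. Its summed level was 3461 and 67.8 CPM in lymphatic cells and 8559 and 1612 CPM in other cells, with Lgals7 the most abundant, 0 genes at 0 in Ctrl and 1 (Krt1) in AD. In Ctrl, 9 lymphatic cells held at least 2% of their UMIs in this list, and the top cell held 24.3% of the list's UMIs.

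Markers of other lineages did not all share this order. The 12 fibroblast genes summed to 1563 CPM in Ctrl and 201 in AD lymphatic cells, and to 31403 and 9075 CPM in other cells, with Dcn the most abundant. All 4 ranked fibroblast genes were lower in AD, where 3.15% of all ranked genes were, and Pdgfra was at 0 by the rule. The 5 erythroid genes summed to 519 and 301 CPM, with Hbb-bs the most abundant and 85.1% of the Ctrl UMIs in 1 cell, and the 11 muscle and fat genes to 423 and 122 CPM, with Cfd the most abundant and 94.0% of the Ctrl UMIs in 1 cell. Without the top cell of each library the order turned, with erythroid sums of 77.2 and 227 CPM and muscle and fat sums of 25.6 and 92.3 CPM. No gene of the myeloid (35.7 and 48.6 CPM, led by Lyz2), lymphocyte (64.2 and 27.8 CPM), mast cell (17.4 and 13.5 CPM, led by Kit), mural (163 and 149 CPM) or Schwann cell and melanocyte lists (63.2 and 34.7 CPM, led by Dct) was ranked. RNA of keratinocytes and fibroblasts was thus higher in the Ctrl lymphatic cells, and its part in the lower AD levels of matrix genes, Thy1 and Ecm2 was not tested.

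Genes of lymphatic identity had a median close to that of all ranked genes, with members past the fold at both ends. Of 30 genes 27 were ranked, 2 were higher (Lyve1 and Sema3a), 2 lower (Thy1 and Mrc1), against 2.52% and 3.15% of all ranked genes, and the median log2 ratio was 0.09. Lyve1 measured 876 CPM in Ctrl and 2338 in AD, a 2.67-fold difference (2.53 to 2.82). Ccl21a, the most abundant of the identity genes, measured 14187 and 7677 CPM, 1.85-fold lower in AD (1.81 to 1.88) and short of the 2-fold line. Its log2 ratio was -0.88 from these sums, but -1.12 as a mean of each cell's CPM and -1.02 without doublet-like cells, past that line. These capillary genes thus went in opposite directions, and Mrc1 (76.7 and 27.8 CPM), a mannose receptor, and Stab1 (304 and 161 CPM), a scavenger receptor, had lower AD levels like Ccl21a. The near-identical copies Ccl21b and Ccl21d were at 0 and at 18.8 and 5.72 CPM, so the split of reads among them is uncertain. Levels of Nr2f2 (732 and 764 CPM), the transcription factor that works with Prox1, of Maf (1208 and 1277 CPM) and of Pdpn (podoplanin, 176 and 204 CPM) differed little.

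Genes of the other lymphatic transcription factors gave a median of -0.01 over 26 ranked of 29 genes, with 0 higher. The flow-responsive factors Klf2 (776 and 810 CPM) and Klf4 (1631 and 1539 CPM) and the blood-lymph factor Sox18 (142 and 147 CPM) lay close to their Ctrl levels. The VEGF-C and growth list had 21 of 41 genes ranked, 1 higher, 3 lower (2.52% and 3.15% of all ranked genes) and a median of -0.17. Ackr3, a scavenger receptor for adrenomedullin and CXCL12, was higher (128 and 405 CPM), and Ptprb (269 and 98.0 CPM), a phosphatase that restrains Tie2, Dusp6 (189 and 79.7 CPM), a feedback inhibitor of ERK, and Tgfbr2 (552 and 261 CPM), a TGF-beta receptor, were lower. The receptor Kdr (VEGFR-2) measured 660 and 580 CPM, and the adrenomedullin receptor genes Calcrl and Ramp2 measured 375 and 585 and 299 and 550 CPM.

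Genes of leukocyte traffic formed the list with the highest median. Of 51 genes 18 were ranked, 8 were higher (Ccl2, Ccl7, Cxcl1, Cxcl2, Ackr3, Icam1, Vcam1 and Sema3a), 2 were lower (Mrc1 and Il7) and the median log2 ratio was 0.61, against 2.52% higher, 3.15% lower and a median of 0.02 for all ranked genes. Il7, which encodes the lymphocyte survival factor interleukin 7, measured 135 and 53.5 CPM in lymphatic cells and 3.41 and 2.20 CPM in other cells. It was thus a gene of the lymphatic cells that was lower in AD. Cd47, the signal that restrains phagocytes, measured 676 and 1046 CPM, and the sphingosine-1-phosphate exporter Spns2 measured 126 and 106 CPM. The selectins that capture rolling leukocytes were low, with Sele at 24.1 and 65.4 CPM and Selp at 9.17 and 46.6 CPM.

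Interferon-induced genes had 16 of 38 ranked, 3 higher and 0 lower, against 2.52% and 3.15% of all ranked genes, with a median of 0.51. The higher genes were all of the Ifitm family, Ifitm1 (30.9 and 143 CPM), Ifitm2 and Ifitm3 (2385 and 5105 CPM). Among the others, the values were spread to both sides, with the tetherin gene Bst2 at 199 and 97.6 CPM, Ly6e at 696 and 422 CPM and the antiviral GTPase gene Gbp7 at 160 and 145 CPM, while Irf1, a transcription factor, measured 394 and 794 CPM. The MHC class I list had 16 of 21 genes ranked, 0 past the fold and a median of 0.22, with B2m, the light chain, at 1335 and 1671 CPM and H2-T23 at 315 and 573 CPM. No MHC class II gene was ranked, and the list summed to 204 and 74.3 CPM. Cytokine receptor and JAK-STAT genes had 17 of 40 ranked, 0 past the fold and a median of 0.35, with the feedback inhibitor Socs3 at 1041 and 1834 CPM, Stat3 at 315 and 512 CPM and Jak1 at 255 and 354 CPM. The receptor of the applied vitamin D analogue, Vdr, measured 13.5 and 2.04 CPM, and its classical target Cyp24a1 was at 0 in Ctrl and 2.86 CPM in AD, both too low to rank.

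The acute phase and complement list had 16 of 34 genes ranked, 3 higher (Lcn2, Serpina3n and C3), 1 lower (Hp) and a median of 0.13, where all ranked genes had 2.52% higher and 3.15% lower. Lbp, which presents bacterial lipopolysaccharide, measured 383 and 738 CPM, and ceruloplasmin (Cp), a copper ferroxidase, measured 1080 and 1347 CPM. In the lower gene, haptoglobin (Hp), 95.2% of the Ctrl UMIs came from 1 cell, and without the top cell of each library its log2 ratio was 1.37. An Hp UMI was found in 0.958% of Ctrl and 10.3% of AD lymphatic cells, against 0.361% and 14.9% of other cells, where Hp measured 0.970 and 843 CPM. The part of RNA from other cells in the AD value was not tested. Early response and stress genes had 45 of 48 ranked and a median of -0.02, with 5 higher (Ier3, Ier5, Mt1, Mt2 and Ddit4) and 3 lower (Egr1, Nr4a1 and Hsph1), beside the same 2.52% and 3.15%. Egr1, a serum response gene, measured 2006 and 895 CPM in lymphatic cells, 1588 and 672 CPM in vessel endothelial cells and 2454 and 3660 CPM in all other cells.

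Genes of lipid and fluid transport formed the lowest of the lists outside the foreign lineages. Of 32 genes 17 were ranked, 0 were higher, 5 were lower (Fabp5, Lpl, Apoe, Cavin2 and Plvap), against 3.15% of all ranked genes, and the median was -0.68. Cavin2, a coat protein of caveolae, measured 1368 CPM in Ctrl and 474 in AD against 698 and 206 CPM in vessel endothelial cells and 34.8 and 37.6 CPM in all other cells, and the caveolar genes Cav1 (437 and 244 CPM) and Cavin1 (524 and 264 CPM) had lower AD values short of the fold. Plvap, which forms the diaphragms of caveolae and fenestrae, measured 273 and 115 CPM. Fabp5 (131 and 8.17 CPM) and Apoe (581 and 231 CPM) were more abundant in other cells, at 741 and 235 and at 1523 and 1964 CPM. So was Lpl (131 and 56.8 CPM), at 307 and 844 CPM. In Ctrl 1 cell held 26.2% of the Lpl UMIs, and without the top cell of each library its log2 ratio was -0.76, short of the fold.

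Matrix genes had 30 of 49 ranked, 2 higher (Thbs1 and Igfbp3), 6 lower (Col18a1, Lamb1, Sparc, Fbln5, Bgn and Igfbp4) and a median of 0.01, against 2.52% higher and 3.15% lower of all ranked genes. The protease inhibitors Timp3 (3174 and 5531 CPM) and Timp2 (955 and 1728 CPM) were the abundant members with higher AD levels short of the fold. Junction and valve genes had 20 of 33 ranked, 0 higher, 2 lower (Ctnnb1, or beta-catenin, at 508 and 217 CPM, and Fn1, or fibronectin, at 381 and 91.5 CPM) and a median of -0.30, beside the same 2.52% and 3.15%. Cell cycle genes had 8 of 24 ranked, with Cdkn1a, the p21 inhibitor of cyclin-dependent kinases, higher (445 and 1082 CPM) and Ccnd1 and Stmn1 lower. A UMI of Mki67, a gene of cycling cells, was present in 14 of 313 (4.47%) in Ctrl and 5 of 300 (1.67%) in AD, against 19.8% and 4.63% of other cells. The 7 ranked genes of 20 in the blood endothelium list had a median of -0.12 and a sum of 1211 and 1426 CPM, with Emcn (endomucin) higher, at 195 and 578 CPM, and Plvap lower. Only 2 of 24 prostaglandin, retinoid and nitric oxide genes and 3 of 9 vitamin D pathway genes were ranked, 0 of them past the fold.

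**Figure D2:**
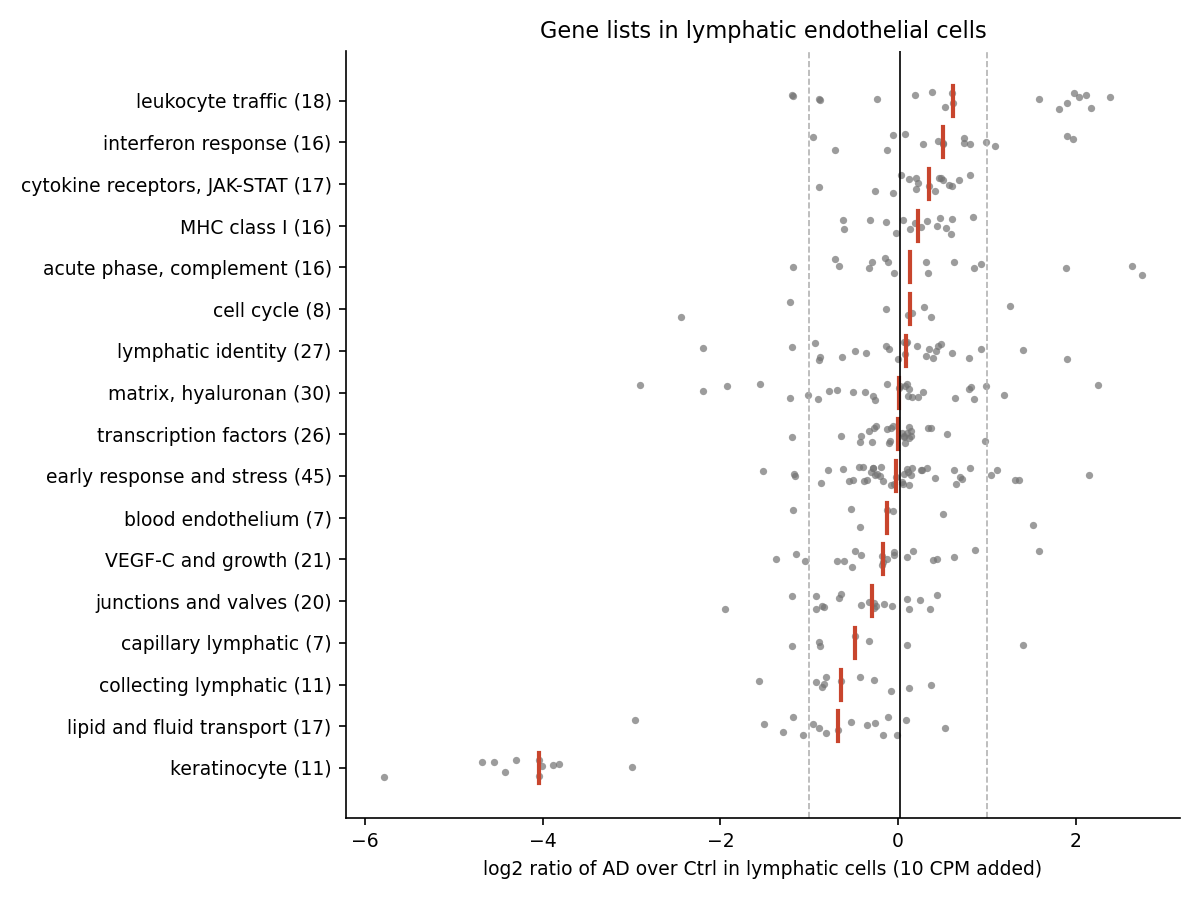
Log2 ratio of AD over Ctrl in lymphatic endothelial cells (horizontal axis, 10 CPM added) for the ranked genes of each list with at least 5 ranked; points are genes, red bars the list medians, the black line the median of all ranked genes and dashed lines the 2-fold limits, with the number of ranked genes in brackets. The keratinocyte list lies apart at -4.04, the leukocyte traffic list has the highest median at 0.61, and lipid and fluid transport the lowest of the remaining lists at -0.68.

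The lymphatic cells were not uniform. Foxp2, a transcription factor gene of collecting vessels, was detected in 49.2% in Ctrl and 27.0% in AD, and in 21.8% and 5.21% after thinning to 1000 UMIs, against 9.16% and 7.03% of other cells before thinning. Lyve1 was found in 33.1% and 60.1% after thinning and Ccl21a in 71.8% and 70.5%. Cells with Foxp2 and no Lyve1 UMI made up 36.7% of the Ctrl and 10.3% of the AD cells, cells with Lyve1 and no Foxp2 UMI 32.3% and 58.3%, cells with both 12.5% and 16.7%, and cells with neither 18.5% and 14.7%. The AD library thus held more cells with Lyve1 and fewer with Foxp2, while other capillary genes (Ccl21a, Mrc1 and Stab1) had lower AD levels. A larger share of capillary cells and a higher Lyve1 level per cell cannot be told apart from detection alone. The collecting vessel list had 11 of 14 genes ranked and a median of -0.65, and over the 7 of its genes also ranked in blood vessel endothelial cells the median was -0.27 in lymphatic and -0.87 in vessel cells. Foxp2 measured 234 and 72.3 CPM, Cldn11, a tight junction gene, 115 and 56.0, Foxc2, a factor needed for valves, 106 and 64.1, and Itga9, the valve integrin, 235 and 125, whereas Nfatc1 measured 285 and 310 CPM. The capillary list, whose 7 ranked genes of 10 gave a median of -0.48, held Lyve1 as its only higher and Mrc1 as its only lower gene, against 2.52% higher and 3.15% lower of all ranked genes.

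Cell by cell, the abundant markers were widely spread and the genes that stood apart between the libraries did so in most cells or in few. The lower quartile, median and upper quartile of a cell's own Ccl21a level were 386, 9054 and 32379 CPM in Ctrl and 239.7, 4280 and 12791 CPM in AD. The highest cells were thus further apart between the libraries than the lowest. For Ifitm2 these values were 451, 822 and 1412 CPM in Ctrl and 1988, 3327 and 4874 CPM in AD, so the lower quartile in AD lay above the upper quartile in Ctrl. Cavin2 had 574, 1266 and 1965 CPM in Ctrl and 0, 287 and 554 CPM in AD, so that order was the reverse. The middle ranges of Lcn2 overlapped, with 0, 246 and 778 CPM against 467, 1145 and 2233 CPM. Timp4 was not of this kind, since it was found in only 7.03% and 23.7% of the cells and its upper quartile was 0 in both libraries. Nts, present in 43.8% and 47.0% of the cells, was likewise a gene of a subset of the cells in each library.

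The cells were also split by detection of a Lyve1 UMI, a split chosen after seeing the data. Since Lyve1 itself differed between the libraries, the sides may hold different kinds of cell in each, and the values are a description. There were 140 Ctrl and 225 AD cells with a Lyve1 UMI and 173 and 75 without. Ccl21a measured 26581 CPM in Ctrl and 9547 in AD in the cells with Lyve1, a 2.78-fold lower level, and 4717 and 2154 CPM in the cells without, a 2.19-fold lower level. Ccl21a was thus lower in AD on both sides. Serpina3n measured 441 and 2106 CPM with Lyve1 and 98.7 and 538 without, and Lcn2 477 and 1768 with and 384 and 1110 without. Icam1 measured 429 and 1187 with and 292 and 1452 without, and Thy1 567 and 97.3 with and 353 and 67.8 without. These 4 genes passed the fold on both sides.

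Other genes differed by side. Sema3a measured 163 CPM in Ctrl and 828 in AD in cells with Lyve1, and 197 and 338 CPM in cells without. Emcn was the reverse, with 199 and 404 CPM with Lyve1 and 192 and 1092 CPM without. Ccnd1 measured 294 and 14.8 CPM with Lyve1, and 106 and 59.8 CPM without. Foxp2 was lower on both sides, at 115 and 50.9 CPM with Lyve1 and 325 and 136 CPM without. Cldn11 measured 53.5 and 52.5 CPM with Lyve1, and 163 and 66.2 CPM without, and the neuropeptide gene Nts measured 386 and 815 CPM with and 1139 and 1909 CPM without. The differences between the sides were not tested.

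**Figure D3:**
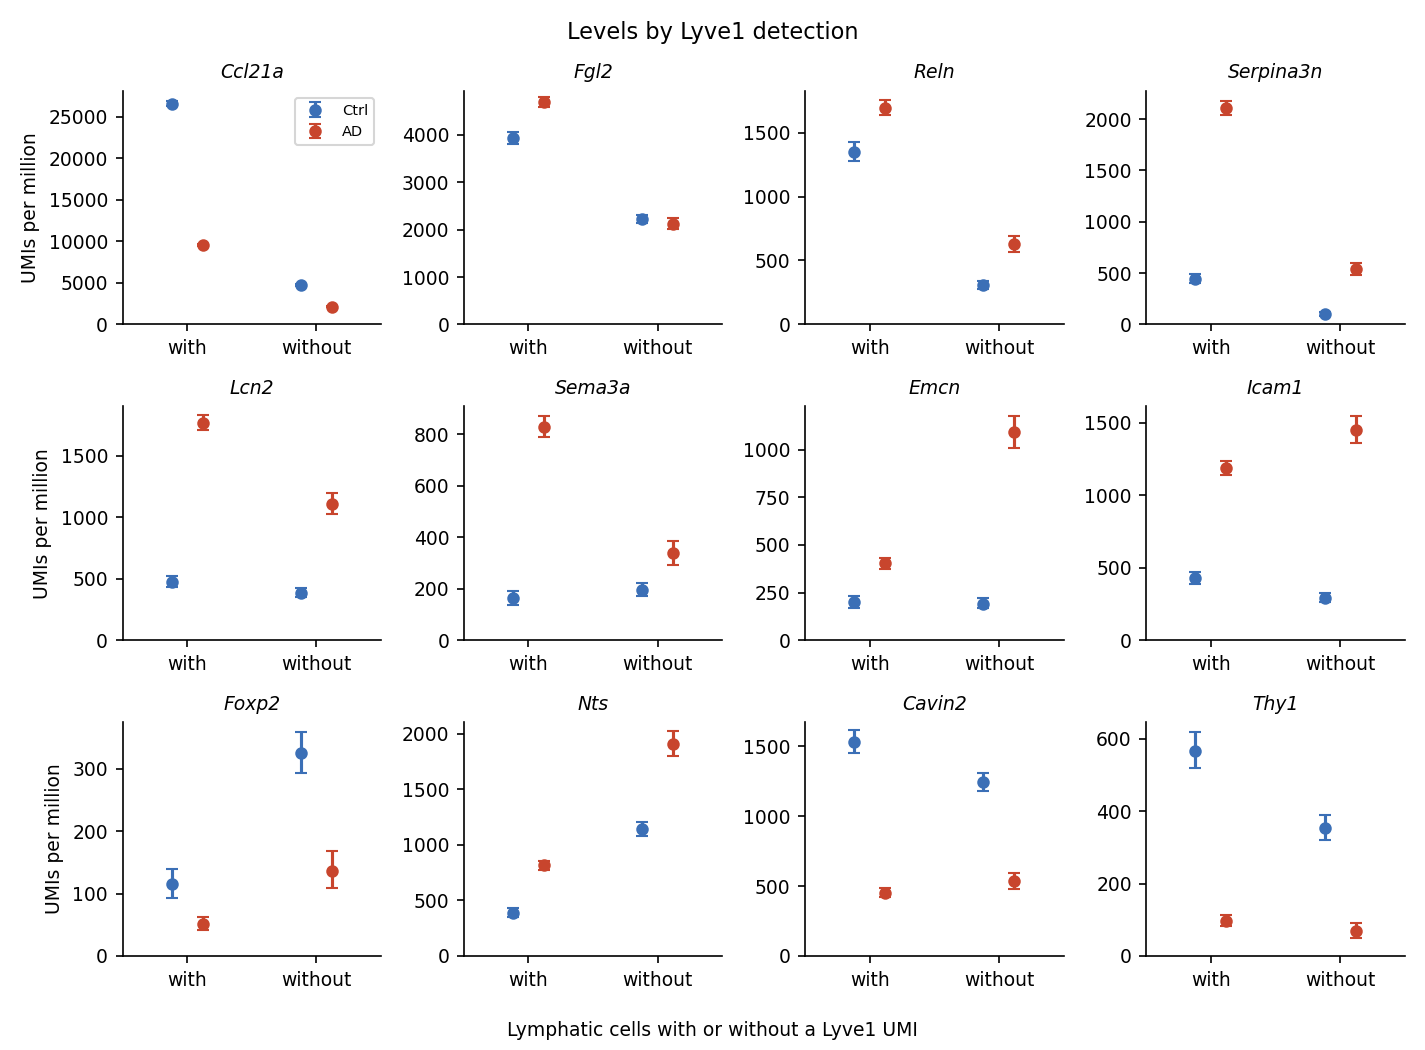
Levels in CPM (vertical axes from 0) of 12 genes in lymphatic endothelial cells with or without a Lyve1 UMI, Ctrl in blue and AD in red; bars are exact Poisson 95% intervals. Ccl21a is lower in AD on both sides, and Sema3a is furthest apart in cells with Lyve1 (163 and 828 CPM).

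Blood vessel endothelial cells of the same libraries, taken as cells with at least 2 UMIs and at least 2 found of Pecam1, Cdh5 and Cldn5 and none of the lymphatic markers, Pdgfra or Ptprc, numbered 74 in Ctrl and 70 in AD. Genes of either rule were left out of the rankings. Of 3903 genes ranked in this comparison, 255 (6.53%) were at least 2-fold higher in lymphatic cells in both libraries and 302 (7.74%) at least 2-fold lower. Both sets were ordered by the weaker of the 2 library ratios. Ccl21a led the former, with log2 ratios of 9.79 in Ctrl and 9.07 in AD and only 6.09 and 4.29 CPM in vessel cells. Lyve1 followed with 6.20 and 7.51. Nts (neurotensin) had 6.36 and 4.78, the semaphorin Sema3d 4.97 and 5.56, Fgl2, a fibrinogen-like immune modulator, 4.88 and 4.95, and Maf 4.65 and 6.01. Fxyd6, Pard6g, Wipf3, Gpm6a, Dtx1, Slc45a3, Nsg1, Clca3a1 and Sema3a completed the 15, and Sema3a had 3.96 in AD.

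By the weaker of the 2 library ratios, Ly6c1 led the genes lowest in lymphatic against vessel cells. Its log2 ratios were -4.76 in Ctrl and -4.70 in AD, at 40.0 and 61.3 CPM in lymphatic and 1347 and 1846 CPM in vessel cells. It was not the lowest within either library, since Flt1 (-5.25) and Sparcl1 (-4.78) were lower in Ctrl. In AD, Aqp1 (-4.97), ENSMUSG00000121069 (-4.87) and Tmem252 (-4.85) were lower. Flt1, the decoy VEGF receptor, had -5.25 and -4.18, and the fatty acid transporter Cd36 -4.05 and -4.20. The scavenger receptor gene Scarb1, the water channel gene Aqp1, Vwf (von Willebrand factor), the arterial factor Sox17, Sparcl1, Tmem252 and a gene given only as ENSMUSG00000121069 completed the 10. Vwf was at 6.27 and 6.94 CPM and Sox17 at 2.89 and 7.76 CPM in lymphatic cells. Not every gene of the blood endothelium list was near 0 there, with Emcn and Plvap at the levels given above. Flt1 measured 25.6 and 60.5 CPM, but only 3.51% of Ctrl and 2% of AD lymphatic cells held a Flt1 UMI. In each library 1 cell held much of the Flt1 sum, 34.0% in Ctrl and 44.6% in AD. Of the 20 genes of the list, 1 was at 0 in Ctrl and 3 in AD.

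Of 2750 genes ranked in both endothelial classes, 65 were at least 2-fold higher in AD in lymphatic and 76 in vessel cells, 26 of them in both. At least 2-fold lower were 61 in lymphatic and 134 in vessel cells, 34 of them in both, and 6 genes passed the fold in opposite directions. Serpina3n (24.3 and 223 CPM in vessel cells), Icam1 (485 and 1969 CPM) and Slc39a14 (71.0 and 288 CPM) were higher in both classes, and Btnl9, Ccnd1 and Cavin2 lower in both. Sema3a, which is not among these genes because vessel cells held only 2.03 and 35.8 CPM, and Lcn2 (4.06 and 107 CPM) had far lower vessel levels. Their AD over Ctrl ratios were not lower there, with log2 ratios of 1.93 and 3.06 in vessel and 1.90 and 1.89 in lymphatic cells. The vessel ratios rest on Ctrl sums of 1 and 2 UMIs. E-selectin and P-selectin stood apart by class, with Sele at 164 and 2667 CPM and Selp at 231 and 2462 CPM in vessel cells, against the low lymphatic values given above. The median interferon ratio was 0.51 in lymphatic and -0.47 in vessel cells over the 15 genes ranked in both, and the MHC class I median 0.22 and -0.13 over 16. The leukocyte traffic median was alike in the classes, at 0.62 in lymphatic and 0.63 in vessel cells over the 9 genes ranked in both. The differences between the classes were not tested.

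The log2 difference of the ratios, lymphatic minus vessel, was at least 1 for 109 genes (3.96%) and at most -1 for 58 genes (2.11%), around a median of 0.17. Creb5, a transcription factor gene, had the highest difference, at 140 and 157 CPM in lymphatic and 93.3 and 8.58 CPM in vessel cells. Anxa6 and Cyba were also among the 6 highest, with Cyba, the p22phox subunit of the NADPH oxidase, at 55.5 and 135 CPM in lymphatic and 85.2 and 37.2 CPM in vessel cells. The other members of that group were the haemoglobin genes Hba-a1, Hba-a2 and Hbb-bs. For each of them 1 Ctrl lymphatic cell held much of the sum, 90.1%, 90.5% and 81.25%. Without the top cell of each library their lymphatic log2 ratios were 1.54, 1.19 and 1.19. In the Ctrl vessel class only 4, 6 and 13 cells held a UMI of them. Among the 6 lowest, Lgals3 (galectin 3) measured 131 and 89.5 CPM in lymphatic and 105 and 744 CPM in vessel cells, the prostaglandin transporter gene Slco2a1 131 and 56.0 against 148 and 597 CPM, and Csf3, which encodes the granulocyte growth factor G-CSF, 111 and 216 against 69.0 and 1138 CPM. The AD level of Csf3 was thus above the Ctrl level in both classes, by a larger ratio in vessel cells. Hp, Cfd and Cmah made up the remaining 3.

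**Figure D4:**
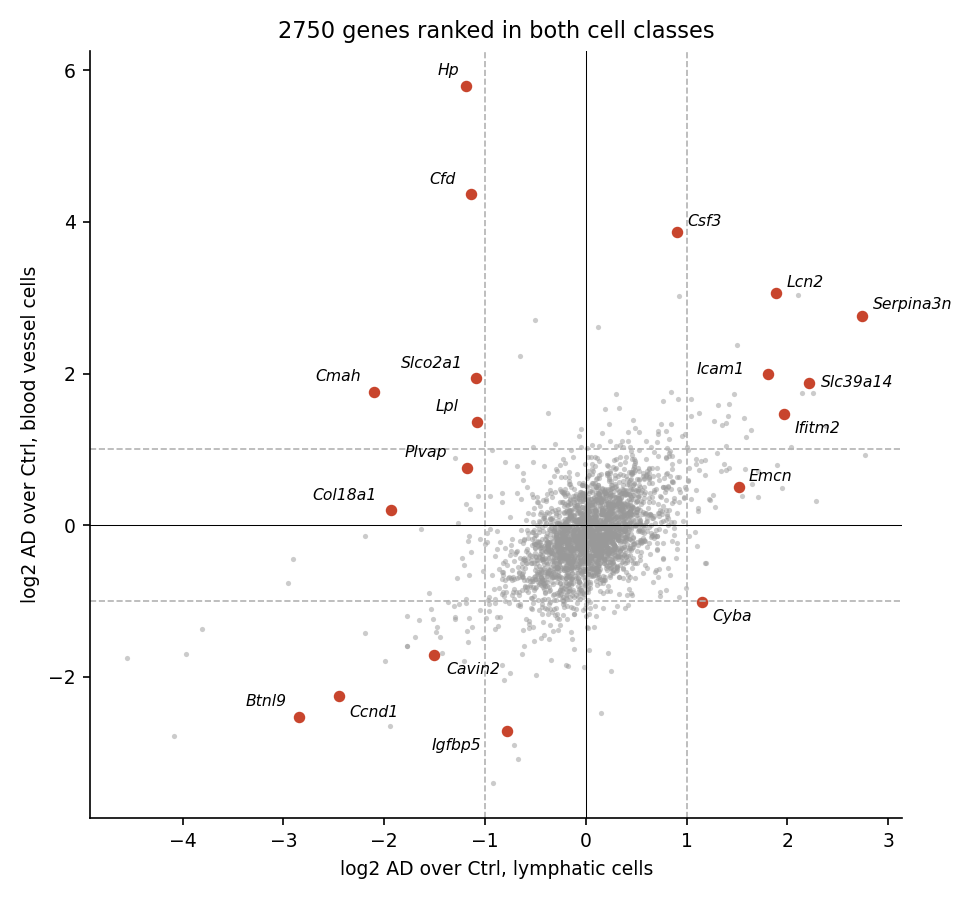
Log2 ratio of AD over Ctrl in lymphatic endothelial cells (horizontal axis) and in blood vessel endothelial cells (vertical axis) for the 2750 genes ranked in both; dashed lines mark the 2-fold limits and red points the labelled genes. Serpina3n, Lcn2, Icam1 and Slc39a14 lie in the upper right, Btnl9, Ccnd1 and Cavin2 in the lower left, and Hp, Cfd, Cmah, Slco2a1 and Lpl in the upper left.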

How the data were processed

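Cells of dorsal skin were captured with Chromium 3′ v3.1 chemistry, 1 library per group. The deposited files hold raw counts of UMIs for 33904 genes and 21376 barcodes, filtered by the authors' pipeline and aligned to mm10; the submitters' notes name Cell Ranger 3.1.0 and Seurat 5.0, whereas the file header names Cell Ranger 5.0.0. No further normalization was present. The libraries held 125184653 and 76106062 UMIs.

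Cells were selected by the rule given above, UMIs were summed per class and library, and levels were expressed as counts per 1000000 UMIs (CPM). Ratios used CPM + 10, genes with a mean of at least 50 CPM were ranked, and past the fold meant a log2 ratio of at least 1 or at most -1. Exact Poisson, binomial and Clopper-Pearson 95% intervals cover counting error only, and no test between conditions was run. Named genes were the 12 highest and 12 lowest ratios among genes at least as abundant in lymphatic as in other cells where they were high, the 5 highest and 5 lowest of the rest, the 15 highest and 10 lowest against vessel cells, the 6 highest and 6 lowest differences, and members of 29 lists. The order against vessel cells used the weaker of the 2 library ratios. The cells and lists were chosen with earlier results of these data known. Of 608 listed symbols 4 matched by an older symbol and 1 was not found in the files. Doublets were not removed; free RNA was not subtracted. Thinning drew 1000 UMIs per cell. Alternatives covered the cell filter, the marker minimum, doublet-like cells (the top 5% of UMIs of their library, or at least 3 UMIs of Krt5, Krt14, Acta2, Rgs5, Lyz2 and Cd3e), the added CPM, scaling, the mean of each cell's CPM, the ranking minimum, the top cell, and stricter vessel cells. The code was tested on simulated data. Python 3.11.15, numpy 2.4.6, scipy 1.17.1, pandas 2.3.3 and matplotlib 3.10.9 were used.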

Additional observations from a re-analysis of the deposited data

Results flagged for a closer look

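Between the lymphatic and the vessel cells, 6 genes passed the 2-fold line in opposite directions, and the difference between the classes was not tested. The log2 difference, lymphatic minus vessel, was -6.98 for Hp, -5.51 for Cfd, -3.87 for Cmah, -3.03 for Slco2a1, -2.44 for Lpl and 2.16 for Cyba. For Hp (89.7 and 33.9 CPM in lymphatic cells, 0 and 545 CPM in vessel cells) and for the adipocyte protease gene Cfd (228 and 97.6 CPM against 0 and 196 CPM), 1 Ctrl cell held 95.2% and 93.9% of the lymphatic UMIs, and without the top cell of each library the lymphatic log2 ratios were 1.37 and 1.81. Lpl (lipoprotein lipase) measured 131 and 56.8 CPM in lymphatic and 46.7 and 136 CPM in vessel cells, with 26.2% of its Ctrl lymphatic UMIs in 1 cell and a lymphatic log2 ratio of -0.76 without it. Cmah measured 97.9 and 15.1 CPM in lymphatic and 18.3 and 85.8 CPM in vessel cells, where the sums were 9 and 60 UMIs. The values of Slco2a1 and Cyba stand in the account of the vessel cells above.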

How the results depend on the processing

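No paired analysis was possible because each group had 1 library. The counts of genes past the fold moved with the added CPM and the ranking minimum. With 50 CPM added in place of 10, 48 genes were higher and 60 lower in AD, 147 were higher and 149 lower in lymphatic than vessel cells, and 35 and 32 had a difference between the classes of at least 1 and at most -1. With a minimum of 100 CPM, 57 genes were higher and 59 lower in AD, 190 were lower than in vessel cells, and 45 and 23 had such differences. With a minimum of 20 CPM, 220 genes were lower in AD, and 244 and 151 had such differences. With the median ratio set to 0, 65 genes had a difference of at least 1. The Ctrl share of lymphatic cells was 2.41% with at least 4 marker UMIs and 3 markers found, and 3.75% without doublet-like cells, a filter that by its construction also removes true cells of other lineages. Car3 turned its direction, with log2 ratios of 0.22 without doublet-like cells, 0.41 without its top cell and 0.92 in cells with a Lyve1 UMI, and without doublet-like cells the differences of Cfd and Hp were 0.14 and 0.32. Of 50 named genes past the fold in AD against Ctrl, 38 remained past it under all the alternatives run. The exceptions included Emcn at 0.98 in cells with Lyve1, Sema3a at 0.75, Tnfaip3 at 0.75, Ccnd1 at -0.73 and Plvap at -0.62 in cells without Lyve1, and Ifitm3 at 0.90 as a mean of each cell's CPM. Plvap was also short of the fold in cells with Lyve1, at -0.89, and so was Lyve1 itself, at 0.63. With 50 CPM added, Mrc1 was at -0.70, Il7 at -0.83, Dusp6 at -0.88 and Tgfbr2 at -0.95. Of 825 gene values under alternatives 656 lay within the counting interval and 166 outside it in the same direction. The 656 include the values under a changed ranking minimum, which leaves each gene's ratio as it is. Those values lay within the interval by construction and do not bear on stability. The splits by Lyve1 were chosen after seeing the data. Depth limits genes below 50 CPM and the vessel cells, whose sums were 492974 and 698915 UMIs.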
